A study of Mus musculus with 16 samples.

Results

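The Bcl2 family of apoptosis regulators was examined in mouse femur through 10 genes, Bcl2, Bcl2l1, Mcl1, Bax, Bak1, Bcl2l11, Bid, Bad, Bik and Bbc3. Members were taken as every probe set (a group of short array probes read as 1 signal) that the platform annotation assigned to 1 of these symbols. By that rule 9 of the 10 genes had 31 probe sets, out of 18193 genes and 45037 probe sets tested in all; Bax was not analysed here. Messenger RNA was measured on 16 Affymetrix arrays, 1 per mouse, taken from left femurs (their distal 5 mm) of female C57BL/6 mice after ovariectomy. Ovariectomy removes the ovaries, the main source of estrogen, and all 4 groups had it. The groups, of 4 mice each, were wild type with vehicle (WT-OVX), wild type with estrogen (WT-E2-4hr), mice lacking estrogen receptor alpha in osteoclasts with vehicle (ERaKO-OVX; the vehicle is named in the series design, not on these samples) and the same knockout with estrogen (ERaKO-E2-4hr). Estrogen or vehicle was given 4 h before harvest. Not given in the sources used here were the driver of the deletion, the estrogen compound, its dose and the age of the mice. The deletion was targeted to osteoclasts, whereas the RNA came from whole bone with its marrow, so that fewer cells of a type and less RNA per cell cannot be told apart.

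Proteins of this family decide whether the outer mitochondrial membrane is opened during intrinsic apoptosis. Bcl2, Bcl2l1 (Bcl-xL) and Mcl1 guard the membrane, Bax and Bak1 form the pores, and the BH3-only proteins Bcl2l11 (Bim), Bid, Bad, Bik and Bbc3 (Puma) sense damage, loss of growth factors or death receptor signals and either block the guardians or engage the pore formers. Bim and Mcl1 are known regulators of osteoclast lifespan, and Bid is the link through which caspase-8, activated below Fas, reaches mitochondria. The study asked whether estrogen protects bone through its alpha receptor in osteoclasts and Fas ligand, which places these genes downstream of the question.

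Promoter windows are shown for Bak1 and Bad, which had the largest estrogen differences in wild-type mice among the 9 probe sets of highest mean per gene, and for Bid, which had the largest difference between the genotypes in the estrogen response among the same 9. Each window runs from 250 bases before to 50 bases after a RefSeq transcription start (GRCm38.p6), on the strand of the gene; capitals mark GGTCA or its complement TGACC, the unit that the estrogen receptor binds as a pair. The Bak1 window is chr17:27028578-27028877 (minus strand), the Bad windows are chr19:6941611-6941910 and chr19:6942312-6942611 (plus strand), and the Bid window is chr6:120916775-120917074 (minus strand).
Bak1: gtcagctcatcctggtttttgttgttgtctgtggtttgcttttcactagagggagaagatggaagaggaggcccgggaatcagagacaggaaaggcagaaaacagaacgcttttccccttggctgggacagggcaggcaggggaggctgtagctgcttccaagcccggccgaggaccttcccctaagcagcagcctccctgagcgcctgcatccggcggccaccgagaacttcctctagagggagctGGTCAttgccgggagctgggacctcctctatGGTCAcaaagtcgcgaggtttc
Bad, first start: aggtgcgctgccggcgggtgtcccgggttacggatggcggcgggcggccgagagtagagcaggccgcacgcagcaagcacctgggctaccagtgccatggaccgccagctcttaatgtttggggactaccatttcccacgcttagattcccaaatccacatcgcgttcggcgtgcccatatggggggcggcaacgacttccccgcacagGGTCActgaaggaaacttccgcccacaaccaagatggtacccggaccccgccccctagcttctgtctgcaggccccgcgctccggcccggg
Bad, second start: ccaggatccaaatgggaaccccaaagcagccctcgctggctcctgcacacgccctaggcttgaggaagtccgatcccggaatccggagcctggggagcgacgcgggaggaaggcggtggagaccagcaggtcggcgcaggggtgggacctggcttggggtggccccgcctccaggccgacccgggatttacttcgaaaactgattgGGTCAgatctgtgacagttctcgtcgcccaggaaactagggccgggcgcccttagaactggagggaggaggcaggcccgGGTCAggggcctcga
Bid: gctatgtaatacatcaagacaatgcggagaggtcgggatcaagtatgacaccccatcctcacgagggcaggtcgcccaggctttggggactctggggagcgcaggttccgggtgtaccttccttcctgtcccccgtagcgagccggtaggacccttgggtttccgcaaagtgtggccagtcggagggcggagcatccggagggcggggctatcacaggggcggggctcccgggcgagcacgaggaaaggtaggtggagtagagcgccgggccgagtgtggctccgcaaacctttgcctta
The Bak1 window held GGTCA at -3 and 29 relative to the start, the first Bad window at -41, the second Bad window at -44 and 36, and the Bid window held none. Across the family, 15 windows of 9 genes were available (Bax included, Bik not), and 6 windows of 4 genes (Bcl2l11, Bcl2l1, Bak1 and Bad) held GGTCA or TGACC. That share, 40.0%, was near the 40.5% of all 32851 windows. The full element, GGTCA and TGACC parted by 3 bases, was in none of the 15 and in 0.0700% of all windows. The GC box (GGGCGG or CCGCCC) was in 10 windows of 7 genes, 66.7%, against 35.7% of all windows. These matches describe letters in a window and do not show binding.

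Arrays were scaled by the authors to the same trimmed mean of 500, and their median signals ran from 153 to 217. A set of 3 arrays stood apart: WT-OVX replicate 2, WT-E2-4hr replicate 2 and ERaKO-E2-4hr replicate 1. Their mean signal for the bacterial spike-in controls was 16394 to 30298, against 4519 to 7654 in the 13 others, and their Actb 3' to 5' signal ratio, a measure of RNA integrity and labelling, was 2.07 to 3.53 against 1.17 to 1.5. Replicates 3 and 4 also differed from replicates 1 and 2 across the array: 11.2% of all probe sets passed an adjusted p of 0.05 in that contrast, including 8 of 8 skeletal muscle markers, all lower in replicates 3 and 4 (summed signal 2766 to 27924, against 65694 to 544280), and 6 of 8 osteoclast markers, all higher. The labels do not say what separates the replicates. The targeted gene Esr1 read 945 ± 138 (SD, n = 4) in WT-OVX, 507 ± 106 in WT-E2-4hr, 637 ± 60.9 in ERaKO-OVX and 540 ± 149 in ERaKO-E2-4hr. Knockout minus wild type under vehicle was -0.55 ± 0.19 (log2, SE, limma adjusted p = 0.993). The deletion was targeted to osteoclasts, and which cells of this tissue carried it was not measured.

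No member probe set changed in any of the 7 comparisons of treatment and genotype at a limma p adjusted over all 45037 probe sets below 0.05. At an unadjusted p below 0.05, 2 of 31 passed for estrogen in wild type (6.14% of all probe sets did), 0 for estrogen in the knockout (3.73%), 1 for genotype under vehicle (3.58%), 2 for genotype under estrogen (4.92%), 1 for the difference between the estrogen responses (5.34%), 2 for estrogen averaged over genotypes (4.65%) and 1 for genotype averaged over treatments (3.24%). Those counts were near the background, and they moved with the processing: over 27 alternative settings they ran from 1 to 4 for estrogen in wild type and from 0 to 4 for the difference between responses. The adjusted count was 0 in all 7 comparisons under every one of the 27 settings, with a smallest adjusted p of 0.315. On all probe sets the adjusted share was 0% in 6 of these comparisons and 0.00222% for estrogen averaged over genotypes. By sign alone, 27 of the 31 member probe sets were higher with estrogen in wild type, where 47.3% of all probe sets were, and 22 were lower with estrogen in the knockout, where 52.6% of all probe sets were higher. Counted by gene, through the probe set of highest mean, 8 of 9 were higher with estrogen in wild type, but in the knockout 5 of 9 were higher, with a median of 0.06 (log2) against -0.17 over the 31 probe sets. The lower direction in the knockout did not hold per gene. Markers of some cell types also had opposite signs in the genotypes. With estrogen, 0 of 8 skeletal muscle markers were higher in wild type (median -1.01) and 8 of 8 in the knockout (median 1.04). The adipocyte markers were higher in 0 of 4 and 3 of 4. No marker of these 2 lists passed the adjusted threshold in either genotype. Most other lists had medians of the same sign in wild type and the knockout. These were B lymphocyte (-0.55 and -0.64), T lymphocyte and NK cell (-0.26 and -0.64), neutrophil (0.16 and 0.18) and erythroid (-0.14 and -0.23). So did cartilage (-0.65 and -0.55), megakaryocyte (-0.11 and -0.08) and osteoblast (0.03 and 0.04). Osteoclast (-0.01 and 0.11) and endothelium (-0.01 and 0.06) medians differed in sign. Summed muscle signal ran from 14702 to 438340 in WT-OVX, 6923 to 174300 in WT-E2-4hr, 5836 to 123650 in ERaKO-OVX and 2766 to 544280 in ERaKO-E2-4hr, and its part in the members' values was not tested. Probe sets of 1 gene share their RNA and are not independent, and only 14 of 31 had the same sign in both pairs of replicates in wild type and 22 of 31 in the knockout.

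**Figure D1:**
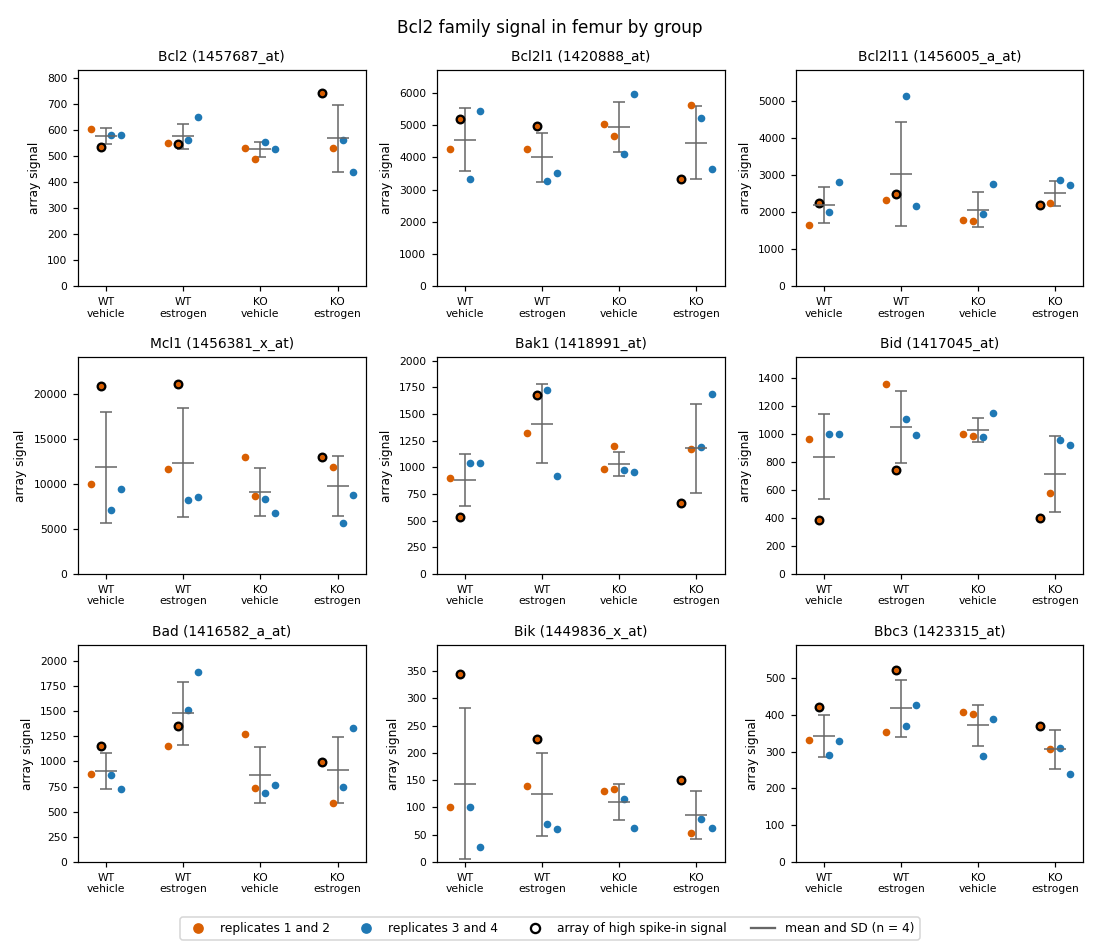
Array signal (linear scale from 0) of the probe set of highest mean for each of 9 genes in the 4 groups; each point is 1 mouse, bars are mean and SD (n = 4), colours separate replicates 1 and 2 from 3 and 4, and black rings mark the 3 arrays of high spike-in signal. The 3 ringed arrays hold the 3 highest signals of Mcl1 and of Bik.

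Among the guardians, Bcl2 and Bcl2l1 had overlapping signals in all 4 groups. Bcl2 (1457687_at) read 607, 535, 584 and 583 in WT-OVX, 553, 547, 562 and 650.1 in WT-E2-4hr, 534, 489, 557 and 529.9 in ERaKO-OVX, and 743, 533, 562 and 438 in ERaKO-E2-4hr, in replicate order. The groups overlapped, and estrogen minus vehicle was 0.00 ± 0.16 in wild type and 0.08 ± 0.16 in the knockout (log2, SE). Its 4 other probe sets tracked this one weakly over the 16 arrays (Pearson r from 0.08 to 0.24). Bcl2l1 (1420888_at), which protects erythroid cells and platelets among others, read 4240.4, 5177, 3332 and 5446 in WT-OVX, 4257, 4955, 3253 and 3518 in WT-E2-4hr, 5021, 4663, 4097 and 5966 in ERaKO-OVX, and 3336, 5630.3, 5207 and 3637 in ERaKO-E2-4hr. Again the ranges overlapped, and estrogen minus vehicle came to -0.18 ± 0.21 (wild type) and -0.17 ± 0.21 (knockout). The 95% interval in wild type, -0.62 to 0.26, leaves room for moderate differences in either direction. A second Bcl2l1 probe set (1420887_a_at) was 0.71 ± 0.29 higher in the knockout than in wild type under vehicle, with a limma unadjusted p of 0.0224 and adjusted p of 0.993.

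Mcl1, a short-lived guardian needed by many marrow cells, gave signals that depended on the probe set and on the array more than on the group. Its brightest probe set, 1456381_x_at, read 9981, 20902, 7134 and 9448 in WT-OVX, 11672, 21064, 8192 and 8499 in WT-E2-4hr, 12948, 8634, 8274 and 6734 in ERaKO-OVX, and 13017, 11834, 5631 and 8757 in ERaKO-E2-4hr. The 3 arrays of high spike-in signal were its 3 highest of 16, and estrogen minus vehicle was 0.07 ± 0.36 in both genotypes. Over the 16 arrays its log2 signal followed the Actb ratio with r = 0.85, and with r = 0.65 in the 13 arrays left without those 3. The probe set 1416881_at went the other way, with r = -0.78, or -0.13 without the 3 arrays. Against the brightest one, the 5 other Mcl1 probe sets had r from -0.51 to 0.93. With estrogen in the knockout, these 5 were lower in both pairs of replicates, as for 1448503_at (-0.17 and -0.13). In wild type all 5 were higher in replicates 1 and 2, as for 1416881_at (0.97). Only 1448503_at (0.65 and 0.14) was also higher in replicates 3 and 4 of wild type. The part of RNA quality in these values was not tested. Genes of the most similar pattern to 1456381_x_at among 12734 were Rpl38 (r = 0.96), Tmsb10 (0.96) and Rps20 (0.95), and in the 13 arrays these were 0.92, 0.89 and 0.87.

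**Figure D2:**
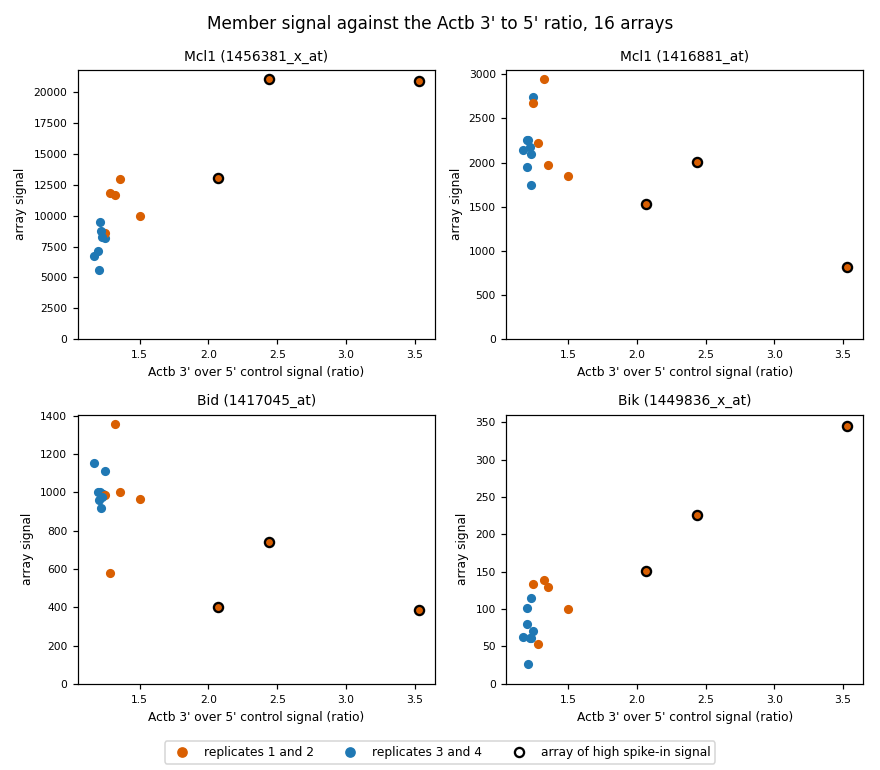
Array signal (linear, from 0) of 4 member probe sets against the Actb 3' to 5' control ratio, 1 point per array (16 arrays), coloured by replicates, with rings on the 3 arrays of high spike-in signal. The 2 Mcl1 probe sets run in opposite directions along the ratio (r = 0.85 and -0.78 on log2 values).

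Bak1, which forms the membrane pore, had 1 of the 2 larger estrogen differences in wild type among the probe sets of highest mean. Its probe set 1418991_at read 898, 534, 1043 and 1044 in WT-OVX and 1321, 1678, 1719.8 and 920.4 in WT-E2-4hr. In the knockout it read 985, 1197, 978 and 955 with vehicle and 667, 1173, 1187 and 1691 with estrogen. Of the 4 wild-type estrogen arrays, 3 lay above all vehicle arrays and the fourth lay within them. The difference was 0.68 ± 0.27 in wild type (limma unadjusted p = 0.0209, adjusted p = 0.734; exact two-sided permutation p = 0.0857, where 4 against 4 can reach 0.0286, and 0.167 within replicate pairs) and 0.13 ± 0.27 in the knockout. It was 1.09 in replicates 1 and 2 of wild type and 0.27 in replicates 3 and 4. With the 3 high spike-in arrays left out it was 0.36 in wild type and 0.37 in the knockout. The second Bak1 probe set, 1425716_s_at, was dim. Its means were 54.2 in WT-OVX, 53.1 in WT-E2-4hr, 49.8 in ERaKO-OVX and 75.0 in ERaKO-E2-4hr. Over the 16 arrays its r with 1418991_at was -0.001.

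Bad, which links growth factor signalling to the guardians, had the other. Signals of 1416582_a_at were 871, 1158, 869 and 729 in WT-OVX and 1152, 1354.5, 1509 and 1895 in WT-E2-4hr. They were 1277, 732, 685 and 765 in ERaKO-OVX and 991, 583, 747 and 1335 in ERaKO-E2-4hr. Only 1 wild-type vehicle array reached into the estrogen range. Estrogen minus vehicle was 0.69 ± 0.25 in wild type (limma unadjusted p = 0.0127, adjusted p = 0.674; exact two-sided permutation p = 0.0571, or 0.111 within replicate pairs) and 0.06 ± 0.25 in the knockout. Knockout minus wild type under estrogen was -0.73 ± 0.25 (limma unadjusted p = 0.00932, adjusted p = 1.00; exact permutation p = 0.0571); this shares the wild-type estrogen arrays with the previous comparison. The difference between the responses, -0.63 ± 0.35, had p = 0.152 by exact permutation. It was -0.65 in replicates 1 and 2 and -0.62 in replicates 3 and 4. The wild-type estrogen difference was 0.31 in replicates 1 and 2 and 1.07 in replicates 3 and 4. The second Bad probe set, 1416583_at, showed 0.03 in wild type. Genes most like 1416582_a_at over the 16 arrays were Casp8ap2 (r = 0.83), Rtcb (0.82) and Tubg1 (0.82).

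**Figure D3:**
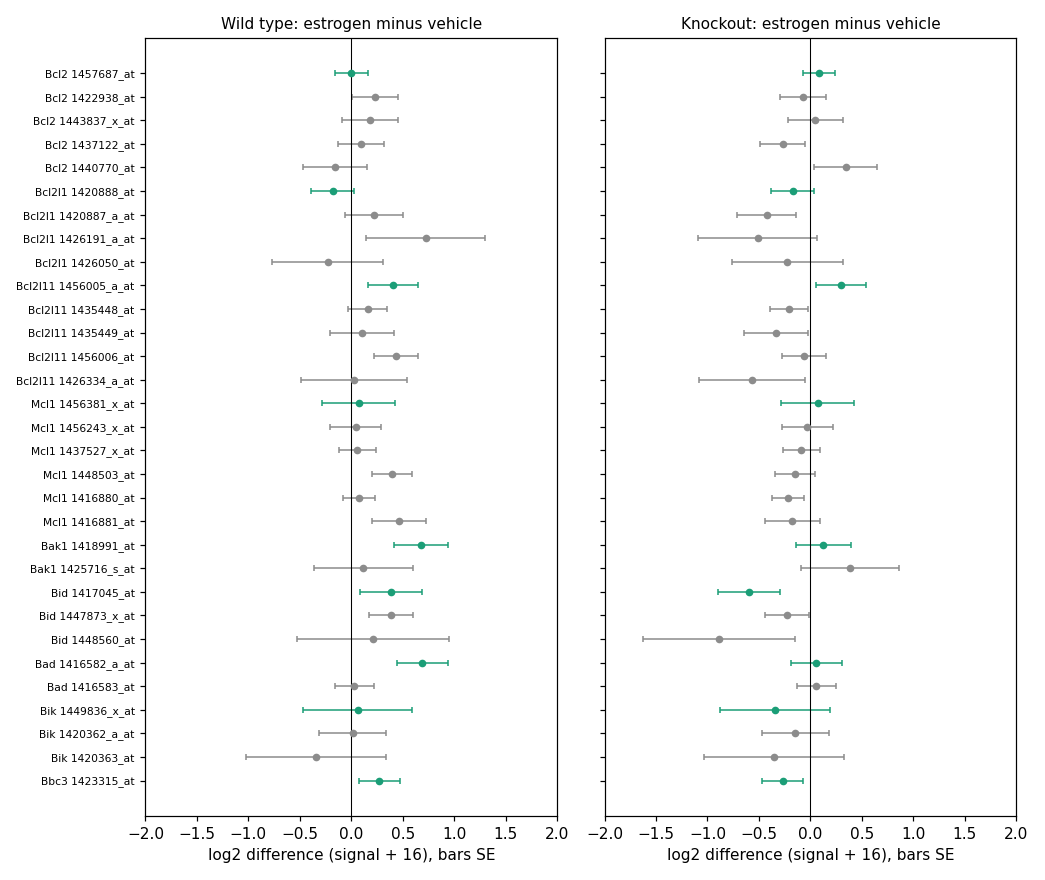
Estrogen minus vehicle (log2 of signal + 16, bars SE, 4 against 4 mice) for all 31 member probe sets in wild type and in the knockout; green marks the probe set of highest mean per gene. In wild type 27 of 31 lie above 0 and in the knockout 22 lie below, but of the 9 green points 8 and 5 lie above 0; none passed the adjusted threshold.

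Bid, the BH3-only protein cleaved by caspase-8, had the largest difference between genotypes in its response among the 9 probe sets of highest mean (the dim Bcl2l1 1426191_a_at had -1.23 ± 0.82). Its probe set 1417045_at read 966, 384, 999.8 and 1000.4 in WT-OVX and 1357, 742, 1109 and 992 in WT-E2-4hr. In the knockout it read 999, 988, 977 and 1153 with vehicle and 401, 580.2, 959 and 919 with estrogen. All 4 knockout estrogen arrays lay below all 4 vehicle arrays, as also for Mcl1 1416880_at; that is 2 of 31 member probe sets, where 3.5% of all probe sets did not overlap in this comparison and 2.03% were lower without overlap. No member probe set separated the groups for estrogen in wild type (3.13% of all did), genotype under vehicle (3.2%) or genotype under estrogen (2.09%). The difference was -0.60 ± 0.30 in the knockout (limma unadjusted p = 0.0646, adjusted p = 1.00; exact permutation p = 0.0286, the smallest 4 against 4 can give, and 0.0556 within replicate pairs, again the smallest possible) and 0.39 ± 0.30 in wild type. The wild-type value was 0.053 without WT-OVX replicate 2 alone, and 0.21 with the 3 high spike-in arrays left out. The responses differed by -0.98 ± 0.43 (limma unadjusted p = 0.0342, adjusted p = 0.927; exact permutation p = 0.0543, or 0.0463 within replicate pairs). The 3 arrays of high spike-in signal ranked 1, 2 and 4 from the lowest of 16 for Bid, and r with the Actb ratio was -0.78 over 16 arrays and -0.05 over the 13 others. Without those arrays the knockout difference was -0.35 and the difference between responses -0.56; in replicates 1 and 2 the latter was -1.72 and in replicates 3 and 4 it was -0.24. A second Bid probe set, 1447873_x_at, gave a difference between responses of -0.62 ± 0.30 (limma unadjusted p = 0.0543; exact permutation p = 0.0249, or 0.0077 within replicate pairs). The third, 1448560_at, gave -1.10 ± 1.04 (exact permutation p = 0.358), with -2.39 in replicates 1 and 2 and 0.19 in replicates 3 and 4. The part of RNA quality in it was not tested. Ankrd44, Rassf3 and Serp1 had the pattern most like Bid (r = 0.94 each over 16 arrays, 0.79, 0.78 and 0.74 over 13).

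Bbc3, the p53 target Puma, had 1 probe set, 1423315_at. It read 331, 423, 290.2 and 329 in WT-OVX, 353, 522, 369 and 427 in WT-E2-4hr, 407, 403, 289 and 389 in ERaKO-OVX, and 369, 309, 310.2 and 239 in ERaKO-E2-4hr. The groups overlapped, but estrogen minus vehicle was 0.27 ± 0.20 in wild type and -0.27 ± 0.20 in the knockout. Knockout minus wild type under estrogen was -0.33 in replicates 1 and 2 and -0.52 in replicates 3 and 4. Under vehicle it was 0.11 in both. The responses differed by -0.54 ± 0.28 (limma adjusted p = 0.930). The exact two-sided permutation p was 0.0327, or 0.0216 within replicate pairs, among 9 genes looked at. That permutation supposes no estrogen effect in either genotype, and is not an exact test of equal responses. The difference between responses was -0.44 in replicates 1 and 2, -0.63 in replicates 3 and 4 and -0.62 with the 3 high spike-in arrays left out.

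**Figure D4:**
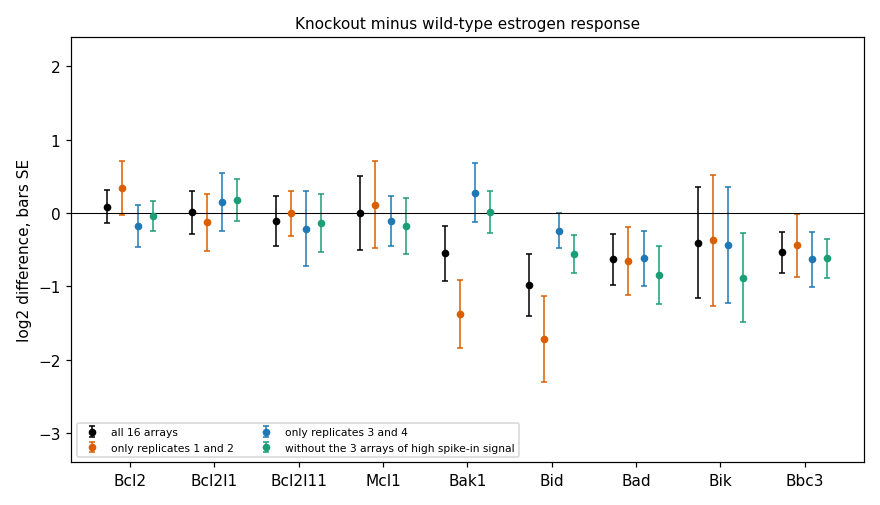
Knockout minus wild-type estrogen response (log2, bars SE) for the probe set of highest mean of 9 genes, from all 16 arrays, from each pair of replicates and with the 3 high spike-in arrays left out. Bid runs from -1.72 to -0.24 between the replicate pairs, and Bak1, Bcl2, Bcl2l1 and Mcl1 change sign. Bad (-0.65 and -0.62), Bbc3 (-0.44 and -0.63) and Bik (-0.38 and -0.44) move less than Bid.

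Bcl2l11 encodes Bim, a BH3-only protein that osteoclasts use when growth factors are withdrawn. Its probe set 1456005_a_at read 1652, 2249.6, 2017 and 2808 in WT-OVX, 2328, 2495, 5136 and 2171 in WT-E2-4hr, 1792, 1772, 1939 and 2765 in ERaKO-OVX, and 2202, 2239, 2876 and 2726 in ERaKO-E2-4hr. A single wild-type estrogen array, replicate 3, stood far above the rest. Estrogen minus vehicle was 0.40 ± 0.24 in wild type and 0.29 ± 0.24 in the knockout, with exact two-sided permutation p-values of 0.314 and 0.171. Without WT-E2-4hr replicate 3 the wild-type difference was 0.12. The other Bcl2l11 probe sets had lower means with estrogen in the knockout. From ERaKO-OVX to ERaKO-E2-4hr these were 1143 and 1000 (1435448_at), 451 and 370 (1435449_at), 282 and 271 (1456006_at), and 93.7 and 76.1 (1426334_a_at). In wild type the means of 1435448_at, 1435449_at and 1456006_at were higher with estrogen, and that of 1426334_a_at was lower. Bik (1449836_x_at), a BH3-only protein of the endoplasmic reticulum, read 100.3, 344, 102 and 26.9 in WT-OVX, 139, 226, 70.4 and 60.9 in WT-E2-4hr, 129.6, 134, 115 and 63.0 in ERaKO-OVX, and 151, 53.6, 79.5 and 61.9 in ERaKO-E2-4hr. It was the member below the filter on low genes (mean signal 121), and its 3 highest arrays were the 3 of high spike-in signal. Its estrogen differences, 0.06 ± 0.53 and -0.35 ± 0.53, were smaller than their SE.

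Member signals also differed between the replicate pairs, a contrast that is not part of the study's question. For replicates 3 and 4 minus 1 and 2, 3 of 31 member probe sets changed at the adjusted threshold, against 11.2% of all probe sets, and 12 passed unadjusted, against 26.1%. Mcl1 fell in 1456381_x_at (-0.76 ± 0.17, limma adjusted p = 0.0078) and in 1456243_x_at (-0.44 ± 0.14, adjusted p = 0.0417), and Bcl2l11 rose in 1435449_at (0.62 ± 0.16, adjusted p = 0.0203). With the 3 high spike-in arrays left out, 1 of the 3 still passed (1456381_x_at, -0.50, limma adjusted p just under the threshold). The other Mcl1 probe sets were mixed in their means for replicates 1 and 2, then 3 and 4. Those of 1437527_x_at (9866.5 and 8596) and 1448503_at (9052 and 7971) fell. Those of 1416880_at (5248 and 5372) and 1416881_at (2002 and 2170.5) were slightly higher in replicates 3 and 4. Neutrophil markers were lower in replicates 3 and 4 in 4 of 8 genes (summed signal 188410 to 243980, against 235430 to 607420); their part in the Mcl1 values was not tested.

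**Figure D5:**
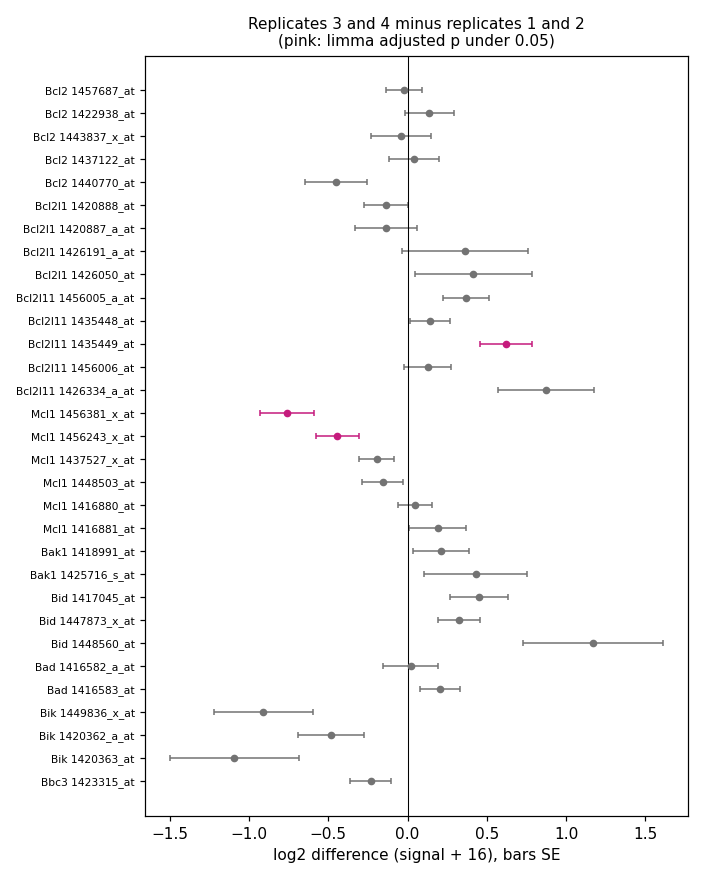
Replicates 3 and 4 minus replicates 1 and 2 (log2 of signal + 16, bars SE, 8 against 8 arrays) for the 31 member probe sets. The 3 in pink, 2 of Mcl1 and 1 of Bcl2l11, passed a limma adjusted p of 0.05.

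The other genes of the pathway likewise gave no adjusted call for treatment or genotype. Measured genes numbered 13 of 18 other Bcl2 family genes, 17 of 19 genes of mitochondrial release and caspases, 9 of 10 of the death receptor route to Bid and 12 of 13 regulators of the members. At limma unadjusted p under 0.05, 2 of 17 mitochondrial and caspase genes passed for estrogen in wild type (6.14% of all probe sets). For estrogen averaged over genotypes, 1 of those 17 and 2 of 13 other Bcl2 family genes passed (4.65%). Each of these 2 lists had 1 gene for genotype under estrogen (4.92%). The caspase list had 1 for the difference between responses (5.34%), and the family list 1 for genotype under vehicle (3.58%). The last 2 lists had none. The shares in brackets are over all probe sets, whereas the lists use 1 probe set per gene. With 1 probe set per gene and the lowest 30% of genes left out, the shares were 8.65%, 6.14%, 6.71%, 7.61% and 3.55%, in the same order. At unadjusted p, Apaf1, the scaffold of the apoptosome, was 0.53 ± 0.18 higher with estrogen in wild type (limma adjusted p = 0.622) differed between responses by -0.64 ± 0.25 and between genotypes under estrogen by -0.38 ± 0.18 (knockout minus wild type). Birc3, an inhibitor of apoptosis, was 0.56 ± 0.23 higher with estrogen in wild type (adjusted p = 0.737) and 0.39 ± 0.16 averaged over genotypes. With estrogen, averaged over genotypes, 2 other Bcl2 family genes were lower: Bok, an effector-like member (-0.39 ± 0.17), and Bcl2l14 (-0.87 ± 0.35), each with a limma adjusted p of 1.00. Bok read 507 ± 123 (SD, n = 4) in WT-OVX, 375 ± 65.9 in WT-E2-4hr, 419 ± 123 in ERaKO-OVX and 314 ± 52.7 in ERaKO-E2-4hr. Bmf, a BH3-only gene, gave a knockout minus wild type difference of -0.51 ± 0.22 under estrogen, and Bnip3 one of -1.04 ± 0.44 under vehicle. Fasl, the ligand in the study's question, read 82.9 ± 39.2 (SD, n = 4) in WT-OVX, 114 ± 90.1 in WT-E2-4hr, 97.0 ± 39.6 in ERaKO-OVX and 105 ± 5.49 in ERaKO-E2-4hr. Its estrogen difference was 0.25 ± 0.43 in wild type and 0.17 ± 0.43 in the knockout. The means of Fasl and of Bcl2l14 in all 4 groups lay below the filter on low genes (mean signal 121). Median differences of the 4 lists with estrogen in wild type were -0.19, 0.07, 0.23 and 0.06 in the order given, against -0.02 over all probe sets.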

How the data were processed

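The deposited table holds 1 linear signal intensity per probe set and array, which the authors computed in GCOS, per the submitters' processing notes (version: not given in the sources used here). Arrays were not pooled. Of 45101 probe sets, 64 controls were left out; platform annotation named 1 gene for 34945, several for 932 and none for 9160. Signals were analysed as log2(signal + 16) with limma 3.58.1 (R 4.3.3): 1 mean per group over 16 arrays, trended variance, Benjamini-Hochberg adjustment over 45037 probe sets. Single members were also tested by exact two-sided permutation, over all arrays of the groups compared and within the replicate pairs (smallest p 0.0556 for 4 against 4). For the difference between responses, estrogen and vehicle labels were exchanged within each genotype. That permutation supposes no estrogen effect in either genotype, so its p is not an exact test of equal responses. For each gene the text names the probe set of highest mean and other probe sets at a limma unadjusted p under 0.05. For Bcl2l1, Mcl1, Bcl2l11, Bak1, Bad and Bid it also gives further probe sets that were not picked by this threshold. Pathway genes are named at a limma unadjusted p under 0.05 for treatment or genotype. The 3 most correlated genes are named for each of the 3 members of largest SD over the arrays (Mcl1, Bid and Bad). These members were taken among the 8 above the lowest 30% of gene means, which leaves out Bik. Members, lists and rules were chosen with earlier results of these data known. The labels do not say whether mice were housed or processed apart. Log2 differences understate changes of dim probe sets. Same-numbered arrays deviated together in all 24 pairs (r 0.19 to 0.60), so a fit with the replicate block was run too; other numbers of the same pair of replicates did so as much (median 0.37 against 0.32). The number of arrays limits the precision. Tests were checked on simulated data.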

Additional observations from a re-analysis of the deposited data

Results flagged for a closer look

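Among 36 groups of 4 arrays, 8 held an array whose gap to the nearest other array was unusually wide for 4 values; chance flags about 1 group in 20. Bcl2 read 650.09 in WT-E2-4hr replicate 4, against 547 to 562 in the others. Bcl2l11 read 5136.1 in WT-E2-4hr replicate 3 (others 2171 to 2495) and 2765.2 in ERaKO-OVX replicate 4 (others 1772 to 1939). Bak1 read 1197.4 in ERaKO-OVX replicate 2 (others 955 to 985). Bid read 383.61 in WT-OVX replicate 2 (others 966 to 1000.4), an array of high spike-in signal, and 1153.1 in ERaKO-OVX replicate 4 (others 977 to 999). Bad read 1276.7 in ERaKO-OVX replicate 1 (others 685 to 765), and Bbc3 read 288.72 in ERaKO-OVX replicate 3 (others 389 to 407). The estrogen responses of Bbc3 differed between genotypes by -0.54 (exact permutation p = 0.0327), 1 of 9 genes looked at. This permutation supposes no estrogen effect in either genotype, and is not an exact test of equal responses. For Bbc3 the limma adjusted p was 0.930, and the limma unadjusted p was not under 0.05.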

How the results depend on the processing

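No adjusted call appeared for treatment or genotype under any of the 27 settings, the replicate block included (0 in all 7 comparisons). The unadjusted counts were unstable. For estrogen in wild type (2) the count was 4 with the lowest 30% of probe sets left out and with quantile normalization, 1 without the 3 high spike-in arrays, and 1 to 4 without single arrays. For estrogen in the knockout (0) it was 1 under the replicate block, with the replicate set as a term and in replicates 1 and 2, and 0 to 1 without single arrays. For genotype under vehicle (1) it was 2 with the set as a term and in replicates 1 and 2, 0 in replicates 3 and 4, with 1 probe set per gene and without the 3 arrays, and 0 to 2 without single arrays. For genotype under estrogen (2) it was 4 under the replicate block and with the set as a term, 1 in replicates 3 and 4 and with array weights, and 1 to 4 without single arrays. For the difference between responses (1) it was 2 with the 30% filter, the replicate block and array weights, 3 with quantile normalization, the set as a term and without the 3 arrays, 4 in replicates 1 and 2, 0 in replicates 3 and 4, and 0 to 3 without single arrays. For estrogen averaged over genotypes (2) it was 0 with the 30% filter, with 1 probe set per gene and in replicates 1 and 2, 1 without the 3 arrays, and 0 to 3 without single arrays. For genotype averaged over treatments (1) it was 0 in replicates 1 and 2, with array weights and without the 3 arrays, and 0 to 2 without single arrays. Between replicate pairs the adjusted count (3) was 1 with 1 probe set per gene and 1 without the 3 arrays, and 2 to 6 without single arrays, with 6 without WT-E2-4hr replicate 1; the unadjusted count (12) was 3 with 1 probe set per gene, where fewer probe sets were tested, and 9 to 12 without single arrays. Reversals were counted only for the 9 probe sets of highest mean, and where the difference exceeded its SE. They were Bak1 for genotype under estrogen (0.17 in replicates 3 and 4, 0.056 without the 3 arrays), Bak1 for the difference between responses (0.28 and 0.011) and Bad for estrogen averaged over genotypes (-0.015 in replicates 1 and 2). Other probe sets were not counted, and some changed sign too, as Bid 1448560_at for the difference between responses (0.19 in replicates 3 and 4). The cause was not tested.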
